A study of Mus musculus with 8 samples.

Results

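The Kruppel-like factors of the vessel wall are 10 genes, Klf2, Klf3, Klf4, Klf5, Klf6, Klf7, Klf9, Klf10, Klf13 and Klf15, and they were taken from a microarray study of injured mouse carotid arteries. The members were chosen by name: every noncontrol probe whose gene name in the scanner files is one of the 10 was used, which gave 12 of the 55681 probes on the array. Klf9 and Klf13 had 2 probes each and the other 8 genes had 1. The arteries came from female mice, 6 weeks old per the labels, of a mixed genetic background and on a western-type diet. They were harvested 14 days after a wire had been drawn through the vessel, an injury that strips the endothelium and provokes neointimal growth. All mice lacked apolipoprotein E (ApoE-/-), which raises plasma cholesterol. The control group of 4 mice was miR-126+/+/ApoE-/- and the other 4 mice were miR-126-/-/ApoE-/-. For these genes the comparison asks whether their transcripts in injured arteries depend on miR-126, which endothelial cells make in abundance. The labels do not say how the microRNA gene was disrupted. Whole arteries were profiled, so fewer cells of a type and less RNA per cell cannot be told apart in any value below.

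Kruppel-like factors are transcription factors that bind CACCC and GC-rich DNA through 3 zinc fingers near the end of the protein. In endothelium Klf2 and Klf4 are induced by laminar flow through the kinase ERK5 and the factor MEF2, and they favour an anti-inflammatory, anticoagulant state. KLF2 has also been reported to raise miR-126 under flow. In smooth muscle Klf4 and Klf5 are known for repressing contractile genes and promoting growth after injury, while Klf15 is known as a restraint on that response and as a metabolic regulator in fat and muscle.

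The sequences that bear on these measurements are the microRNA that separates the groups, a promoter that carries the flow-response element, and a pair of probes that read the conserved zinc fingers. The mature miR-126a-3p has its seed (bases 2 to 8) in capitals and lies at chr2:26591402-26591423 on the plus strand (RefSeq, GRCm38.p6).
mmu-miR-126a-3p: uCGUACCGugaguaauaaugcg
The Klf2 promoter stretch lies at chr8:72318919-72318978 on the plus strand (RefSeq, GRCm38.p6), with its match to the MEF2 consensus in capitals, 108 bases before the gene's start.
Klf2 promoter: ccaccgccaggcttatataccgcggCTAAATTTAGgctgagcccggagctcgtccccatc
The Klf5 probe lies at chr14:99702656-99712388 and the main Klf13 probe at chr7:71082854-71082913 (mm9, the build of the files). The capitals mark the stretch in which both probes align without gaps.
Klf5 probe: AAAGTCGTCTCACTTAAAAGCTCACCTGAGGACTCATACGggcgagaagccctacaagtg
Klf13 probe: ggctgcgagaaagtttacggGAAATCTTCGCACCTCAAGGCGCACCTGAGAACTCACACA

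Among the 8 members with a promoter in the RefSeq table, the MEF2 consensus was found, on either strand of the 300 bases, in that of Klf2. It was present in 3.19% of all 32851 promoters. CACCC, on either strand, was found in 6 of the 8 member promoters and in 57.5% of all promoters, so its presence did not set the family apart. The Klf5 and Klf13 probes share 29 of 40 aligned bases (72.5%), the highest identity among the 66 pairs of member probes, where the next pair reached 54.8%. The Klf5 probe spans a splice junction, since its 60 bases cover a longer stretch of the genome. Whether transcripts of one gene add signal to the probe of the other was not tested.

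The array's 75th percentile of signal, to which each value is scaled, ran from 619.7 to 864.6 intensity units. No array had a saturated spot (0 in all), and any pair of arrays correlated at 0.959 to 0.987 over the tested probes. Row 1 of the slide carried every control array and row 2 every knockout array, so genotype and position on the slide cannot be told apart. The arrays measure messenger RNA, and no value here is for miR-126 itself. Egfl7, whose intron holds miR-126, gave 5.78 ± 0.17 in controls and 6.26 ± 0.18 in knockouts (SD, n = 4 each; adjusted p = 0.271 in limma); it lies outside the microRNA and does not check the labels. A local dim area on array miR-126-/- 4, between grid rows 55 and 100 and grid columns 56 and 70, held 0 of the 12 member spots. The means per array of 10 adipocyte marker genes, centred over the 8 arrays, ran from -1.19 to 0.23 in miR-126+/+ arteries and from 0.15 to 1.04 in miR-126-/- arteries. All 10 adipocyte markers were higher in miR-126-/- arteries, by a median of 1.31 log2 units. In limma 0 of the 10 had an adjusted p under 0.05, and 9 had an unadjusted p under 0.05, against 10.1% of all genes. The means of 10 endothelial markers ran from -0.28 to -0.02 and from -0.08 to 0.32. Their 10 genes, which include Egfl7, were all tested, and 9 were higher in miR-126-/- arteries. They differed in size, from 0.52 for Robo4 and 0.48 for Egfl7 to 0.05 for Pecam1, with Vwf at -0.02. In limma 0 of these endothelial markers had an adjusted p under 0.05, and 4 had an unadjusted p under 0.05. Among smooth muscle markers, the mean log2 signal in controls was 7.27 for Acta2 and 6.95 for Tagln, and both were well above background on all 8 arrays.

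None of the 10 Kruppel-like factors differed between the genotypes after adjustment over all tested probes. With limma, 0 of the 12 member probes had an adjusted p under 0.05, and 1 had an unadjusted p under 0.05, the second probe of Klf13. Over all 32484 tested probes 0.04% passed the adjusted threshold and 9.89% had an unadjusted p under 0.05, so the members' share of 8.33% lay near the background. Read at the brightest probe of each gene, 5 members had a higher and 5 a lower mean without miR-126 (48.9% and 51.1% of all genes), with a median difference of -0.03 log2 units, beside -0.0049 over all genes. The median size of the difference, without its sign, was 0.096 for the members and 0.14 for all genes. All 12 probes were well above background on all 8 arrays, although the second Klf9 probe was dim, with signals from 49.6 to 81.9 intensity units.

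The data bounded the difference closely for most members. For 7 of the 10 genes the 95% interval of the difference lay within 1.5-fold in either direction, as was so for 58.1% of all genes; the same 7 of 10 lay within 2-fold, beside 82% of all genes. The intervals of Klf5, Klf7 and Klf15 reached 2-fold or beyond. These are also the members that varied most between mice of the same genotype: the spread within genotypes exceeded that of 92.2% of all tested probes for Klf5, 79.7% for Klf7 and 78.5% for Klf15. At the other end Klf13 (main probe), Klf3 and Klf10 exceeded the spread of only 6.40%, 10.6% and 17.5% of probes.

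**Figure D1:**
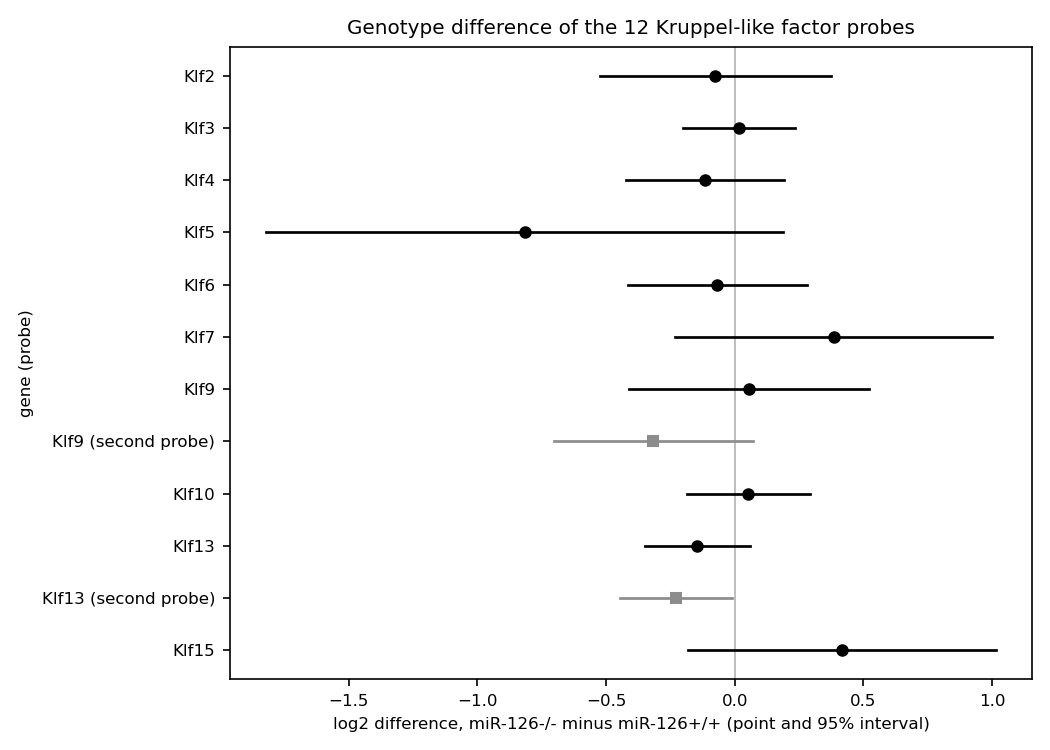
Fitted log2 difference (miR-126-/- minus miR-126+/+) and 95% interval for the 12 probes of the 10 Kruppel-like factors, with the second probes of Klf9 and Klf13 in grey. The intervals of 11 probes include 0, and that of the second Klf13 probe ends at -0.01.

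Klf2, the flow-induced endothelial factor, was at the same level in both groups within the spread between mice. Its log2 signals, relative to the array's 75th percentile, were 3.76, 3.98, 4.27 and 3.53 in miR-126+/+ mice 1 to 4 and 3.54, 4.10, 3.61 and 3.99 in miR-126-/- mice 1 to 4. The highest and the lowest of the 8 values both belonged to miR-126+/+ mice, so the miR-126-/- values lay wholly inside the control range. The difference was -0.08 ± 0.19 (SE, n = 4 each; adjusted p = 0.933), and its interval ran from 0.695-fold to 1.29-fold. A change of Klf2 as large as 1.5-fold therefore lay outside the interval.

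Klf4, which shares flow induction with Klf2 and acts in smooth muscle as a repressor of contractile genes, gave 2.78, 2.60, 2.76 and 2.57 in miR-126+/+ mice and 2.22, 2.77, 2.67 and 2.58 in miR-126-/- mice 1 to 4. The low value of miR-126-/- 1 stood apart from 7 values within a narrow band. The difference was -0.12 ± 0.13 (SE, n = 4 each; adjusted p = 0.827; interval from 0.746-fold to 1.14-fold). It ran from -0.19 to -0.0039 when arrays were left out in turn, and the value nearest 0 was that without miR-126-/- 1.

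Genes of the route that turns on Klf2 and Klf4 also showed no difference past the threshold. Of 10 genes of the MEK5, ERK5 and MEF2 route, 6 were higher and 4 lower, the median difference was 0.0070, and with limma 0 passed either the adjusted threshold or an unadjusted p under 0.05. The 4 with the smallest p were the upstream kinase gene Map3k3 (-0.18 ± 0.11), the MEK5 gene Map2k5 (0.14 ± 0.09) and the MEF2-binding deacetylase genes Hdac4 (-0.15 ± 0.10) and Hdac5 (0.13 ± 0.09; SE, n = 4 each).

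Endothelial genes that are reported to respond to KLF2 or KLF4 were mostly higher, whichever way they are reported to respond. Genes reported as raised by these factors numbered 9 tested, of which 7 had a higher and 2 a lower mean without miR-126, with a median of 0.11. With limma 0 passed, where 0.0505% of all genes did, and 2 had an unadjusted p under 0.05, against 10.1% of all genes. S1pr1, a receptor for sphingosine 1-phosphate, gave 0.43 ± 0.13 (adjusted p = 0.304) and the prostaglandin D synthase gene Ptgds 1.0 ± 0.35 (adjusted p = 0.390), both without overlap of the genotypes, as for 6.06% of all tested probes. The endothelial nitric oxide synthase gene Nos3 gave 0.33 ± 0.16 and the angiopoietin receptor gene Tek 0.23 ± 0.13. Of 10 genes reported as lowered by KLF2 or KLF4, 9 were higher and 1 lower, with a median of 0.24. The vasodilator peptide gene Adm gave 0.66 ± 0.18 (adjusted p = 0.276), the adhesion molecule gene Vcam1 0.34 ± 0.19, the tissue factor gene F3 0.40 ± 0.26 and the angiotensin converting enzyme gene Ace 0.27 ± 0.22 (SE, n = 4 each). With limma 0 of these passed, and 1, Adm, had an unadjusted p under 0.05. Adm was also without overlap of the genotypes. The endothelial marker means given above moved the same way as both lists. So did B and T lymphocyte markers, of which 8 of 8 tested were higher, by a median of 0.74, with means per array from -0.73 to 0.40 in controls and from -0.39 to 1.33 in knockouts. In limma 0 of these 8 passed, and 2 had an unadjusted p under 0.05. The part of either cell type in these values was not tested.

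**Figure D2:**
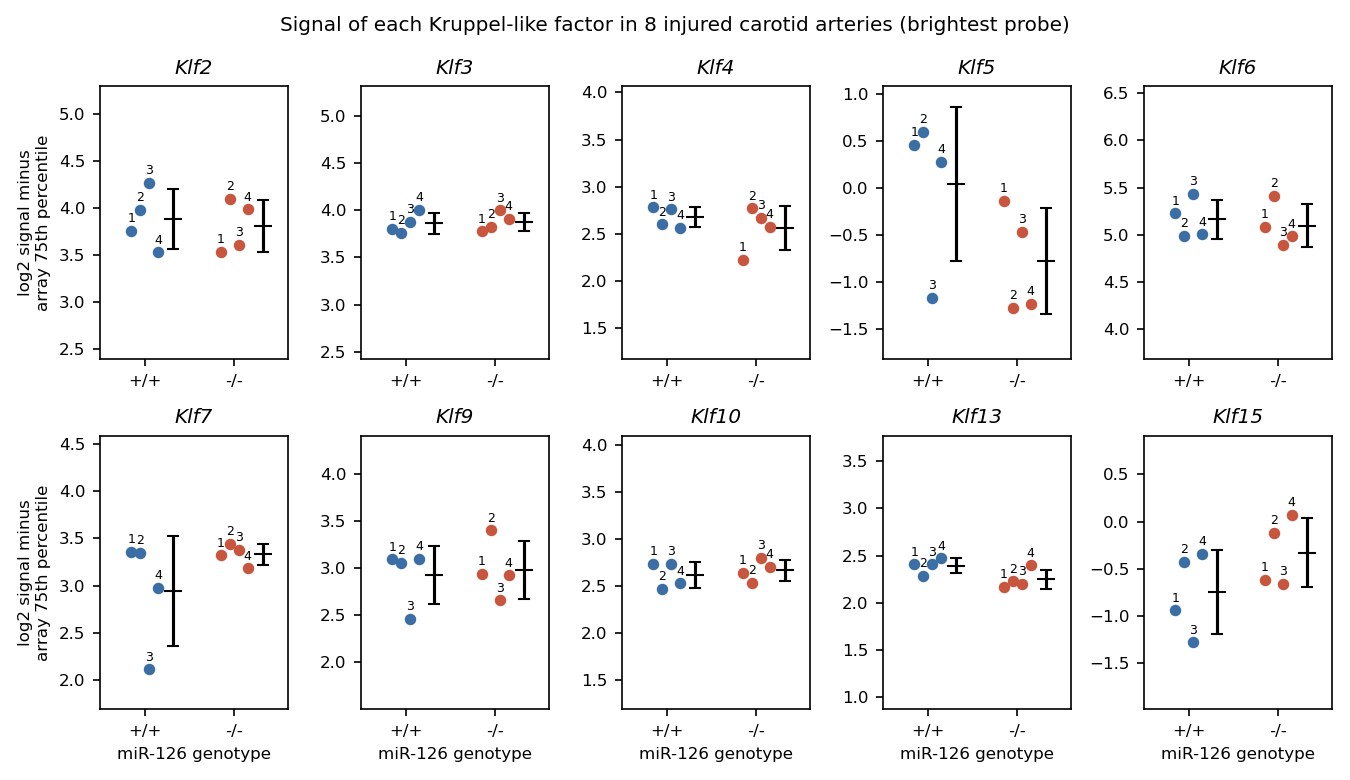
Log2 signal minus the array's 75th percentile for the brightest probe of each gene, by genotype, with each mouse's number beside its point and the mean ± SD in black. The panels have axes of equal length but different position; the genotypes overlap in all 10 panels, and mouse miR-126+/+ 3 is the lowest of its group for Klf5, Klf7, Klf9 and Klf15.

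Klf5, which is induced in neointimal smooth muscle and promotes its growth, had the largest difference of the family and also the largest spread. Its log2 signals were 0.45, 0.59, -1.17 and 0.28 in miR-126+/+ mice 1 to 4 and -0.14, -1.28, -0.47 and -1.23 in miR-126-/- mice 1 to 4. Of the miR-126+/+ mice, 3 lay above all miR-126-/- mice, and miR-126+/+ 3 lay among the lowest. The difference of -0.82 ± 0.43 (SE, n = 4 each; 1.76-fold lower) did not pass (adjusted p = 0.608), and its interval ran from 0.283-fold to 1.14-fold. Without miR-126+/+ 3 it was -1.22, with an unadjusted p of 0.00462 in limma and an adjusted p of 0.298. Across all 8 mice Klf5 covered a 3.65-fold range, the widest of the 10 genes.

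Genes that KLF5 is reported to raise in smooth muscle did not share 1 direction. Among 5 tested genes 2 had a higher and 3 a lower mean, with a median of -0.02. In limma 0 passed and 2 of the 5 had an unadjusted p under 0.05, a larger share than the 10.1% of all genes. These were the growth factor gene Vegfa (0.56 ± 0.21) and the cyclin gene Ccnd1 (-0.70 ± 0.30), which pointed in opposite directions. The growth factor gene Pdgfa gave -0.18 ± 0.17 (SE, n = 4 each). Of 6 contractile genes reported as lowered by KLF4, 5 were higher and 1 lower, with a median of 0.16 and, in limma, 0 with an adjusted or an unadjusted p under 0.05. Smtn gave 0.36 ± 0.16, Cnn1 0.33 ± 0.19, Tagln 0.12 ± 0.16 and Acta2 0.13 ± 0.16 (SE, n = 4 each).

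Klf6 and Klf10 are induced quickly by injury and by transforming growth factor beta. Klf6 gave 5.23, 4.98, 5.43 and 5.0 in miR-126+/+ mice and 5.09, 5.41, 4.89 and 4.98 in miR-126-/- mice 1 to 4. Both groups spanned nearly the same range, and the difference was -0.07 ± 0.15 (SE, n = 4 each; adjusted p = 0.923). Klf10 gave 2.73, 2.47, 2.73 and 2.53 in miR-126+/+ mice and 2.64, 2.53, 2.80 and 2.70 in miR-126-/- mice 1 to 4. Its difference was 0.05 ± 0.10 (SE, n = 4 each; adjusted p = 0.912), with an interval from 0.878-fold to 1.22-fold, so a change of Klf10 of more than about that size lay outside the interval.

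Immediate early genes, which respond to stress and tissue handling within minutes and include no member here, gave a similar picture. Among 20 tested genes 8 had a higher and 12 a lower mean, with a median of -0.03, and with limma 0 had an adjusted or an unadjusted p under 0.05. The 4 with the smallest p were the AP-1 gene Junb (-0.45 ± 0.22), Ier2 (-0.34 ± 0.17), Atf3 (-0.24 ± 0.19) and Egr2 (-0.16 ± 0.13; SE, n = 4 each). Their mean per array was highest in miR-126+/+ 3 (0.29) and lowest in miR-126-/- 3 (-0.19). Klf2 and Klf6 were likewise highest of all 8 mice in miR-126+/+ 3, by 0.42 and 0.30 log2 units over their means. Other members did not follow. Klf10 was highest in miR-126-/- 3, by 0.16 over its mean, and Klf4 in miR-126+/+ 1, by 0.16. Klf7, Klf9 and Klf15 were lowest of all 8 mice in miR-126+/+ 3.

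Klf3, a repressor that binds the co-repressor CtBP, was among the steadiest members. It gave 3.80, 3.76, 3.88 and 4.01 in miR-126+/+ mice and 3.78, 3.82, 4.0 and 3.91 in miR-126-/- mice 1 to 4, a range of 1.19-fold over all 8. The difference was 0.02 ± 0.09 (SE, n = 4 each; adjusted p = 0.972), with an interval from 0.869-fold to 1.18-fold. Klf7, known from neurons and as a brake on fat cell differentiation, gave 3.36, 3.34, 2.11 and 2.98 in miR-126+/+ mice and 3.32, 3.44, 3.38 and 3.18 in miR-126-/- mice 1 to 4. Here 7 mice lay close together and miR-126+/+ 3 lay far below them. The difference was 0.38 ± 0.27 (SE, n = 4 each; adjusted p = 0.709), and 0.11 without miR-126+/+ 3. It was 0.20 with array weights and 0.15 with the adipocyte marker mean as a covariate. In that mouse the means of 7 nerve and Schwann cell markers (-0.93) and of the adipocyte markers (-1.19) were both the lowest of the 8, and the part of nerve cells in the Klf7 value was not tested.

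Klf9, a factor induced by glucocorticoids and thyroid hormone, gave 3.09, 3.05, 2.46 and 3.09 in miR-126+/+ mice and 2.94, 3.40, 2.66 and 2.92 in miR-126-/- mice 1 to 4 by its main probe. The genotypes overlapped and the difference was 0.05 ± 0.20 (SE, n = 4 each; adjusted p = 0.952). The second probe named Klf9 (chr19:23243231-23243290, mm9) lies downstream of the main one (chr19:23240410-23240469, mm9) and was designed on a predicted transcript, 2310051E17Rik, a name that RefSeq now lists as a synonym of Klf9. It gave -3.17, -3.40, -3.51 and -3.56 in miR-126+/+ mice and -3.97, -3.28, -3.89 and -3.76 in miR-126-/- mice 1 to 4. Its difference of -0.32 ± 0.17 (SE, n = 4 each; adjusted p = 0.608) had the opposite sign, so the 2 probes of Klf9 disagreed in direction, neither past the threshold. With normexp background correction the difference of this dim probe was -0.20.

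Klf13, known as an activator of the chemokine gene Ccl5 in T cells, had narrow groups and was lower by both probes. The main probe, in the zinc-finger coding part shown above, gave 2.41, 2.29, 2.41 and 2.47 in miR-126+/+ mice and 2.17, 2.23, 2.20 and 2.40 in miR-126-/- mice 1 to 4. Of the miR-126-/- mice 3 lay below all controls, and the difference was -0.15 ± 0.09 (SE, n = 4 each; adjusted p = 0.664). The second probe (chr7:71032482-71032541, mm9) gave 1.98, 1.91, 1.90 and 1.96 in miR-126+/+ mice and 1.67, 1.82, 1.52 and 1.82 in miR-126-/- mice 1 to 4. All 4 miR-126-/- values lay below all controls, as was so for 2.58% of all tested probes (6.06% in either direction). The difference was -0.23 ± 0.09 (SE, n = 4 each), which is 1.17-fold lower, with an unadjusted p of 0.0423 and an adjusted p of 0.482 in limma.

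What the second Klf13 probe reads is less certain. It was designed on a cDNA clone described as having a retained intron, and its coordinates run along the plus strand, whereas Klf13 and its main probe lie on the minus strand. Of 21021 array probes matched to a RefSeq gene with a known strand, 99.5% ran along the strand of their gene. A further probe that is described as Klf13 but carries a transcript identifier as its gene name, and so is no member by the rule, gave 0.16 ± 0.28 (SE, n = 4 each; adjusted p = 0.894). This further probe was far dimmer than the main one, with log2 signals from -3.47 to -2.30, and its difference was smaller than its SE. The strand-matched probes of Klf13 therefore had differences of both signs, neither past the threshold.

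Klf15, which raises the insulin-responsive glucose transporter gene Slc2a4 (GLUT4) and is abundant in fat and muscle, was higher on average in miR-126-/- arteries. It gave -0.94, -0.43, -1.28 and -0.34 in miR-126+/+ mice and -0.62, -0.12, -0.66 and 0.07 in miR-126-/- mice 1 to 4. The groups overlapped, with the lowest values in miR-126+/+ 3 and miR-126+/+ 1 and the highest in miR-126-/- 4 and miR-126-/- 2. The difference of 0.42 ± 0.26 (SE, n = 4 each; 1.33-fold higher) did not pass (adjusted p = 0.673). The mice lowest and highest in Klf15, miR-126+/+ 3 and miR-126-/- 4, were also lowest (-1.19) and highest (1.04) in the adipocyte marker mean. The other mice did not all follow that order. Mouse miR-126-/- 3 had the second highest adipocyte mean (0.67) but the lowest Klf15 value of its genotype (-0.66). With that mean as a covariate the difference was -0.38 (adjusted p = 0.9999 in limma), so its direction turned. The adipocyte mean itself ran with genotype, at -0.62 in controls and 0.62 in knockouts, so this fit cannot tell them apart. The part of fat or muscle cells in the Klf15 value was not tested.

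**Figure D3:**
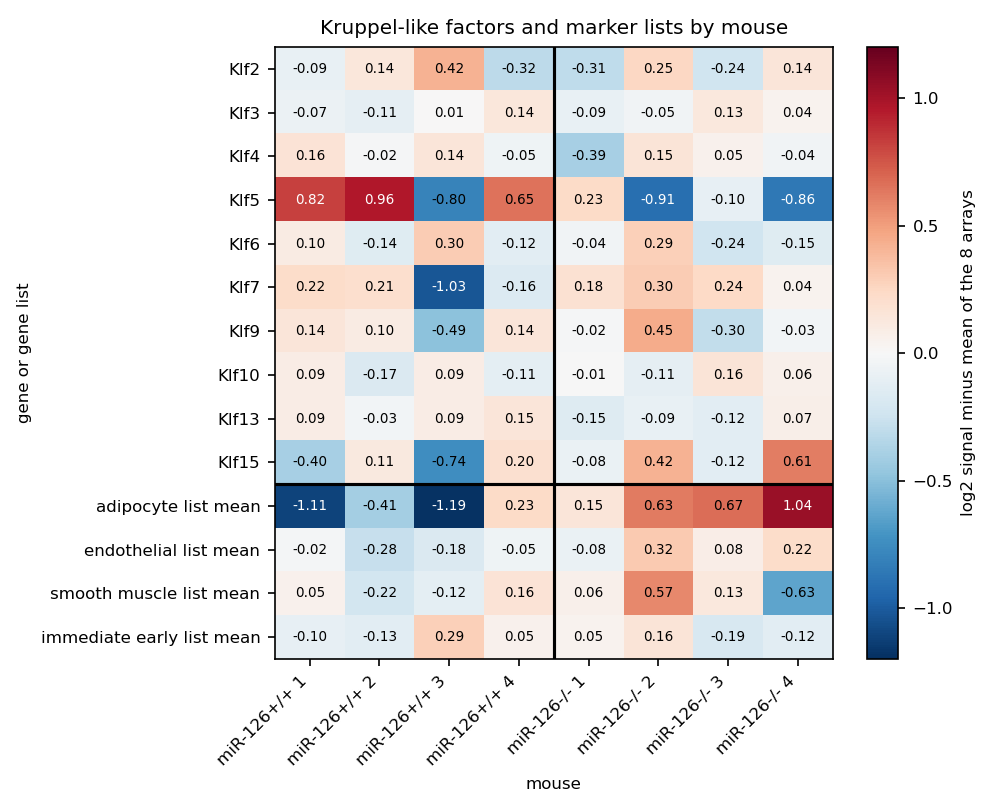
Log2 signal of each Kruppel-like factor (brightest probe) minus its mean over the 8 arrays, by mouse, above the means of 4 gene lists centred in the same way. The adipocyte row separates the genotypes except for miR-126+/+ 4 (0.23, above 0.15 in miR-126-/- 1). Klf15 is lowest and highest in the same mice as that row, but miR-126-/- 3, second highest in that row (0.67), is the lowest of its genotype in Klf15. The low smooth muscle value of miR-126-/- 4 (-0.63) includes Synpo2, whose spot lay in the dim area.

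The partners of the metabolic members were evenly divided in direction, and none passed the threshold. Of 10 adipose and metabolic partners of Klf2, Klf5, Klf9 and Klf15, 5 were higher and 5 lower, with a median of -0.0059. In limma 0 passed and 4 of the 10 had an unadjusted p under 0.05, a larger share than the 10.1% of all genes. Slc2a4 gave 1.23, 2.13, 1.01 and 2.32 in miR-126+/+ mice and 2.76, 2.92, 3.59 and 3.41 in miR-126-/- mice 1 to 4. The groups were separate, like those of 6.06% of all tested probes, and the difference was 1.5 ± 0.33 (SE, n = 4 each; adjusted p = 0.206). Its spot on miR-126-/- 4 lay in the dim area, and its value there was the second highest of that genotype. Dlk1, an inhibitor of fat cell differentiation, gave 1.0 ± 0.22 (adjusted p = 0.200) and Pparg, the regulator of fat cell differentiation, 0.78 ± 0.33 (adjusted p = 0.493; SE, n = 4 each). Fkbp5, a glucocorticoid-induced gene, was -0.76 ± 0.16 (adjusted p = 0.207) over 4 control and 3 miR-126-/- arrays, since its spot on miR-126-/- 4 was marked as an outlier. The adipocyte marker means given above moved with genotype beside these values, and their part was not tested.

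The remaining Kruppel-like and Sp genes, which bind related DNA, showed no difference past the threshold either. Of 7 other Kruppel-like genes 5 were tested, of which 2 had a higher and 3 a lower mean, with a median of -0.09. Klf8 gave -0.17 ± 0.11, Klf16 -0.09 ± 0.08 and Klf11 0.14 ± 0.21, while Klf14 (-0.18 ± 0.61; SE, n = 4 each) was well above background on 4 of 8 arrays. Klf1, the erythroid member, and Klf17 did not pass the filter on dim probes. Of 9 Sp genes 6 were tested, with 3 higher, 3 lower and a median of -0.03. Sp1 gave 0.04 ± 0.09, Sp4 -0.07 ± 0.11, Sp8 -0.13 ± 0.22 and Sp6, well above background on 3 arrays, -1.18 ± 0.81 (SE, n = 4 each). With limma 0 genes of either list had an adjusted or an unadjusted p under 0.05.

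By mouse, the members departed furthest from their own means in a control. The mean size of the deviation over the 10 genes was 0.41 log2 units in miR-126+/+ 3 and between 0.15 and 0.30 in the other 7 mice. That mouse held the lowest value of 3 members (Klf7, Klf9 and Klf15) and the highest of 2 (Klf2 and Klf6). Without it the genotype differences were 0.05 for Klf2, -1.22 for Klf5, 0.02 for Klf6, 0.11 for Klf7, -0.10 for Klf9 and 0.24 for Klf15.

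The genes nearest in pattern over the 8 arrays are given only as a description of these arrays. The measure was the mean absolute difference between log2 values centred on their means, over 13137 named genes. The nearest of so many genes are bound to lie close. A gene with the same value on all 8 arrays would lie at 0.24 from Klf2, 0.13 from Klf4 and 0.34 from Klf15. For Klf2 the nearest were Slc4a11 (0.070), Rad54l (0.079) and Rad51c (0.080), where the median gene was at 0.27. For Klf4 they were Smyd2 (0.035), Barhl1 (0.048) and Cyp2d11 (0.052), with a median of 0.20. For Klf15 they were Mpped2 (0.12), the sortilin gene Sort1 (0.12) and the ferroxidase gene Heph (0.13), with a median of 0.38.

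**Figure D4:**
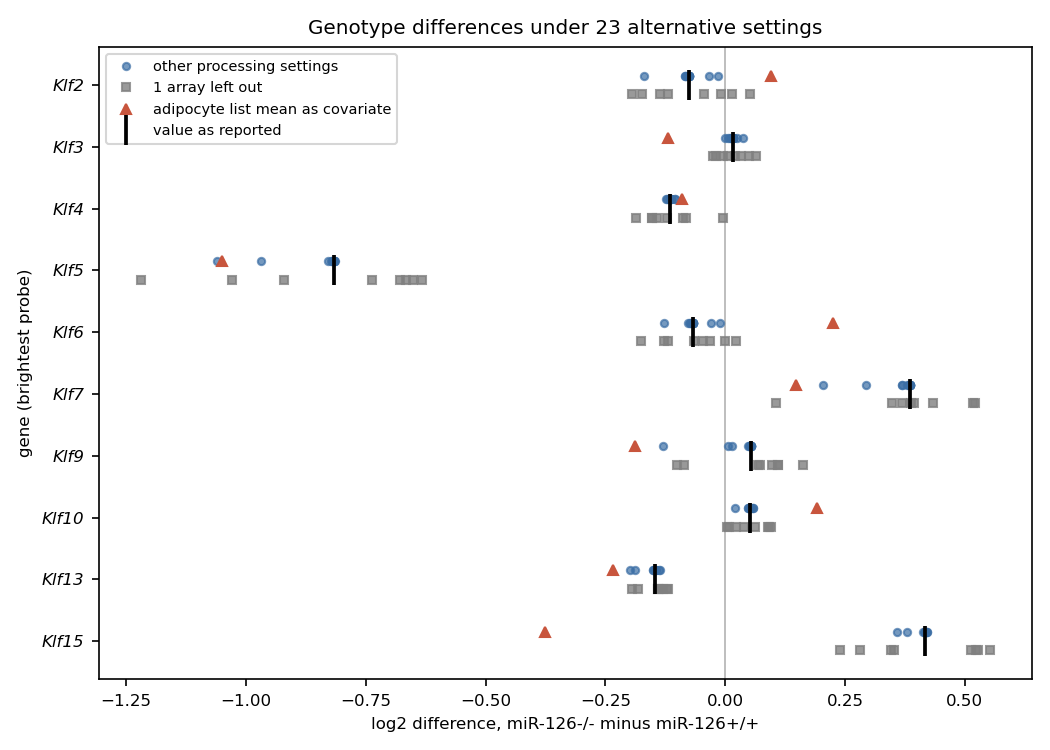
Genotype difference (log2) of each gene's brightest probe as reported (black bar), under 14 other processing settings (blue), with the mean of the adipocyte markers as a covariate (red triangle) and with 1 array left out (grey). Klf4, Klf5 and Klf13 stay below 0 and Klf7 and Klf10 above 0 in all settings shown, whereas Klf2, Klf3, Klf6, Klf9 and Klf15 cross 0 in at least 1.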

How the data were processed

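RNA of whole injured carotid arteries from 4 miR-126+/+/ApoE-/- and 4 miR-126-/-/ApoE-/- mice was hybridised to single-colour Agilent arrays. Per the labels' protocols, 100 ng of RNA, isolated with an RNeasy micro kit, was labelled with Cy3. Per the file headers, arrays were read with Feature Extraction 10.7.3.1, and the deposited values are background-subtracted intensity on a linear scale. The value table that the authors deposited gives these intensity values again (median log2 difference 0), unscaled; its column medians ran from 41.7 to 57.5.

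Control spots were dropped, as were 146 to 216 outlier spots per array, and replicate spots were averaged. Values are log2 signal minus the array's 75th percentile. Probes well above background on at least 3 of 4 arrays of a genotype were tested, each on its own, with limma 3.58.1 in R 4.3.3 (lmFit, eBayes). P-values are two-sided and adjusted by the Benjamini-Hochberg method over 32484 probes, with a threshold of 0.05. P-values measure the spread between 4 mice per genotype, and their number limits the precision. Figures were drawn with matplotlib 3.10.9 in Python 3.11.15. The fit was tested on simulated data.

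All members are reported with each probe. Of each pathway list the 4 genes with the smallest p at the brightest probe are named, except 1 gene that is not reported here; marker lists are given by counts, medians and array means. Outside this rule, Egfl7 is named as the host gene of miR-126, and Acta2 and Tagln for the tissue. Robo4, Pecam1 and Vwf are named for the range of the endothelial markers, and Synpo2 for the dim area. Members and lists were chosen with earlier results of these data known. Of the 55681 probes, 26413 (47.4%) matched an accession in the RefSeq table (GRCm38.p6). Alternatives covered background correction, scaling, filters, probe choice, weights, covariates, the replicate block and leaving out each array.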

Additional observations from a re-analysis of the deposited data

Results flagged for a closer look

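Among 24 groups of 4 values (both genotypes for the 12 probes), 1 held a value far from the rest. For the main Klf9 probe in miR-126+/+ arteries, the lowest value (2.46, miR-126+/+ 3) lay apart from the next by 0.937 of the group's range, beyond Dixon's critical value for 4 values. The other control values were 3.05, 3.09 and 3.09. Chance alone marks about 1 in 20 such groups, so 1 of 24 is close to that rate. Without miR-126+/+ 3 the Klf9 difference was -0.10 instead of 0.05.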

How the results depend on the processing

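None of the 10 genes passed the adjusted threshold under any of the 23 alternatives run. Klf4, Klf5, Klf7, Klf10 and the main Klf13 probe kept their direction in all of them, and the second probes of Klf9 and Klf13 in all but the pair of alternatives that merge or choose probes, which give them no value; Klf5 ran from -1.06 to -0.81 under processing alternatives and from -1.22 to -0.63 with 1 array left out. Fitting the mean of the adipocyte markers as a covariate turned the sign for Klf2 (0.096), Klf3 (-0.12), Klf6 (0.22), Klf9 (-0.19) and Klf15 (-0.38). Quantile normalization turned Klf3 (-0.0012), and averaging the probes of a gene turned Klf9 (-0.13). With 1 array left out, Klf2 ran from -0.19 to 0.052, Klf3 from -0.025 to 0.065, Klf6 from -0.17 to 0.022 and Klf9 from -0.10 to 0.16. The cause was not tested.

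Of all probes, 13 passed as reported, 34 with normexp background correction, 7 when every array had to be above background, 27 with the brightest probe of each gene alone, 8 with an intensity trend and 63 with array weights. With the adipocyte, skeletal muscle and immediate early list means as covariates, 0 (1566 at an unadjusted p under 0.05 in limma), 1 and 6 passed. With 1 array left out, between 0 and 49 passed: 0 without miR-126-/- 2 (though 2481 had an unadjusted p under 0.05 in limma) and 49 without miR-126+/+ 4. Counts also fell below the reported count without miR-126+/+ 1 (7), 2 (2) and 3 (3), and without miR-126-/- 1 (2), 3 (3) and 4 (10).

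Same-numbered arrays did not deviate together (correlations 0.175, -0.285, -0.042 and -0.0002), and differently numbered arrays ran from -0.310 to 0.391. So few pairs cannot exclude that the numbers pair the mice. With the replicate number as a block 0 probes passed (2883 at an unadjusted p under 0.05). Klf15 then had an unadjusted p of 0.0116, its lowest over the settings run, and an adjusted p of 0.377 in limma.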
